A study of Mus musculus with 7 samples.

Results

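The 10 genes described here encode proteins of glucose uptake and glycolysis, together with a kinase and a transcription factor that set where pyruvate goes: Slc2a1, Slc2a3, Hk1, Hk2, Pfkl, Pfkp, Aldoa, Ldha, Pdk1 and Hif1a. They were chosen by symbol, all 10 were found, and they stand among 20142 genes with a unique symbol in the deposited expression table. All 10 passed the minimum for testing and had at least 1 FPKM in all 7 libraries. FPKM (fragments per kilobase of transcript, scaled by how many were mapped) is a level per length, so levels of different genes can be set side by side.

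The libraries were made from EML cells, a mouse multipotent haematopoietic line that can form erythroid, myeloid and lymphoid cells. As background, the line was immortalised with a dominant-negative retinoic acid receptor and depends on stem cell factor, which both groups share. The cells were sorted as Annexin V-negative, which leaves out apoptotic cells, and divided by CD34 on their surface into a negative group of 4 libraries and a positive group of 3. The labels name the strain C57BL/6 and no treatment. Their tissue label (bone marrow) and an age label do not go with a cell line and were not used, and the genotype label of the CD34-negative libraries reads CD43 where the titles read CD34. Whether libraries of a group are from separate cultures is not labelled. The p-values therefore measure the spread among the 7 libraries, which may be technical.

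Glucose enters cells through facilitative transporters of the Slc2a family and is trapped by hexokinases. Phosphofructokinase commits it to glycolysis, aldolase splits the sugar, and lactate dehydrogenase turns the resulting pyruvate into lactate. Pyruvate dehydrogenase kinases keep pyruvate out of the mitochondrial cycle by inhibiting pyruvate dehydrogenase, and the transcription factor HIF-1α, the product of Hif1a, raises many of these genes when oxygen is low. Most steps have several isoforms from separate genes. Haematopoietic stem cells are known for a strong reliance on glycolysis, and red cells, which lose their mitochondria, live on it alone.

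Each library carries a number in its description, and libraries of equal number were also compared with each other. CD34-negative and CD34-positive replicate 1 share the number 3 (written 3a for the CD34-positive library), the replicate 2 libraries share the number 2, and CD34-negative replicate 3 (number 4) and replicate 4 (number 4a) were each set against CD34-positive replicate 3 (number 4). The last 2 of these 4 pairs share a CD34-positive library. Cd34, the gene of the sorted protein, stood at 147 to 256 FPKM in the CD34-positive libraries and at 2.67 to 91.8 FPKM in the CD34-negative ones, with the highest CD34-negative level in replicate 1. Of all summed FPKM, ribosomal protein genes made up 25.7% to 33.96% in the libraries of numbers 3 and 2 and 2.19% to 4.03% in those of number 4. The depth of the libraries is unknown. Among markers of other cell types, Cd3e (T cells), Alb and Ttr (hepatocytes), and Kdr, Col1a2 and Col3a1 (endothelium and stroma) were listed at 0 in all 7 libraries. Other genes of the same lists were present: Pecam1 at 36.4 to 96.6 FPKM, Pdgfrb at 16.6 to 62.9 FPKM, Cd7 at 1.83 to 35.01 FPKM and Trf at 35.1 to 197 FPKM. Each of these 4 was higher in CD34-positive cells in all 4 pairs, as were 21.4% of all genes.

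None of the 10 genes passed an adjusted p of 0.05 in limma over 9259 tested genes, the same as all other genes in that fit (0% higher and 0% lower). With the number as a block, which compares libraries of equal number, none passed either (0% of all genes in each direction), and 3 of the 10 had an unadjusted p under 0.05: Slc2a3 and Hk1 as lower (9.14% of all genes) and Pdk1 as higher (12.8%). Without the block none of the 10 had an unadjusted p under 0.05 (3.38% of all genes as higher and 2.27% as lower). Within equal numbers, Hk2 and Pdk1 were higher in CD34-positive cells in all 4 pairs (21.4% of all genes), and Slc2a3, Hk1, Pfkl, Aldoa and Ldha were lower in all 4 (18.9% of all genes). Slc2a1, Pfkp and Hif1a had no common sign. Hk2 alone among the 10 had groups that did not overlap, with all CD34-positive libraries above all CD34-negative ones (2.67% of all genes as higher, 3.01% as lower, 5.68% in either direction).

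**Figure D1:**
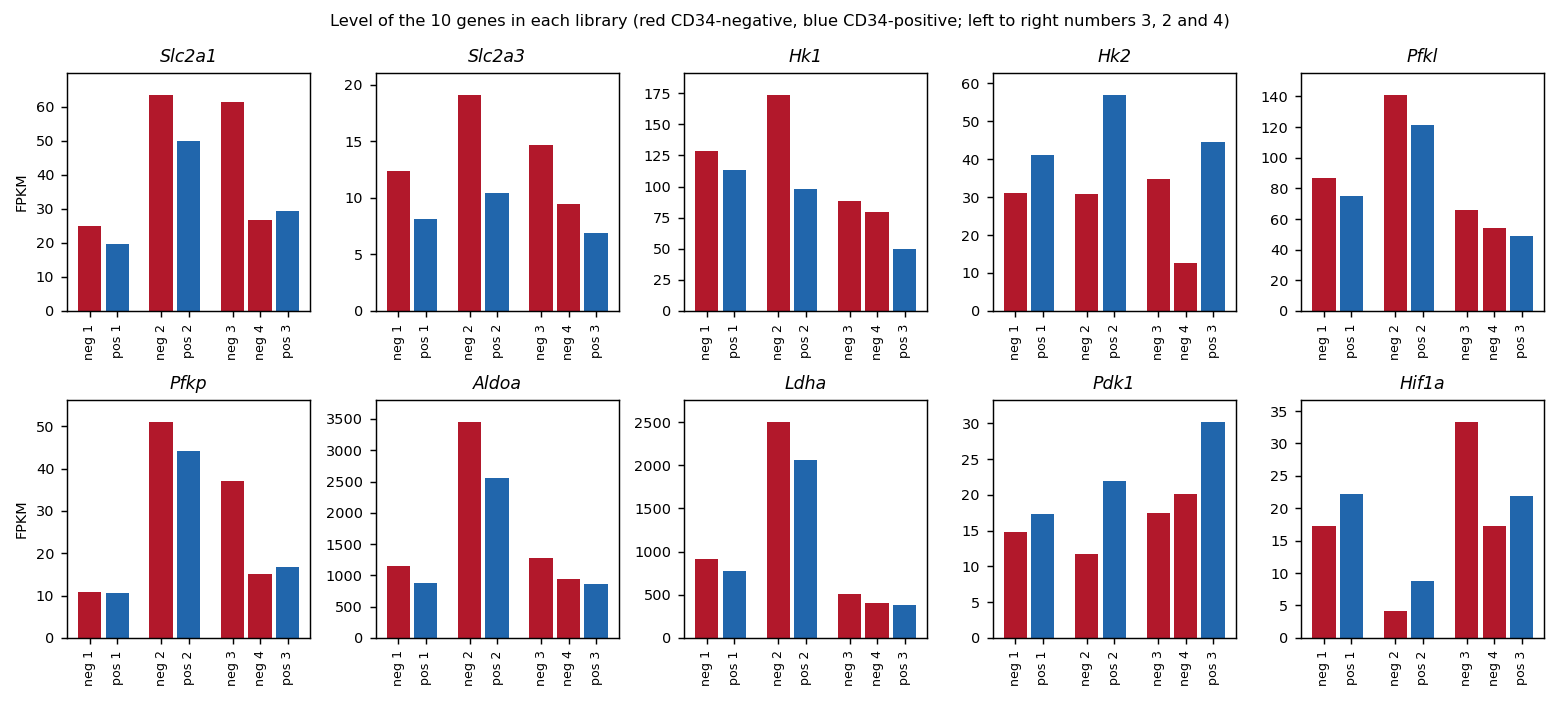
Bars give the FPKM of each of the 10 genes in each of the 7 libraries, red for CD34-negative and blue for CD34-positive, with neg and pos followed by the replicate and libraries of equal number side by side. Hk2 is at 41.1 to 57.0 FPKM in the CD34-positive libraries and at 12.6 to 34.7 FPKM in the CD34-negative ones, while Ldha and Aldoa differ more between numbers than between groups.

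The promoters of 4 of these genes are shown because the genes divide by sign within equal numbers, Hk2 and Pdk1 higher and Hk1 and Ldha lower in CD34-positive cells. Each line is the 250 bases before a transcription start in the RefSeq table of build GRCm38.p6, 5′ to 3′ along the gene's strand. Capitals mark ACGTG and GCGTG, the core of the element that HIF-1 binds, on either strand.
Hk2 (chr6:82774455-82774704, minus strand): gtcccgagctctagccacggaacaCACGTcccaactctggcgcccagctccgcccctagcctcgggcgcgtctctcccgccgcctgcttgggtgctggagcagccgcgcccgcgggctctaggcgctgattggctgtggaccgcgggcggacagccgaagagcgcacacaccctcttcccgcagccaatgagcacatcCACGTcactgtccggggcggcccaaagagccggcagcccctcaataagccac
Pdk1 (chr2:71872974-71873223, plus strand): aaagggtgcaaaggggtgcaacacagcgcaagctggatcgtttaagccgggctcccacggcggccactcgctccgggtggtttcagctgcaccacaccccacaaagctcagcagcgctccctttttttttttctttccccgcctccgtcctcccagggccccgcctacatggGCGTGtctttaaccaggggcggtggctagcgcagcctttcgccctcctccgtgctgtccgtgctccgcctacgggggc
Hk1, start nearer the gene body (chr10:62340422-62340671, minus strand): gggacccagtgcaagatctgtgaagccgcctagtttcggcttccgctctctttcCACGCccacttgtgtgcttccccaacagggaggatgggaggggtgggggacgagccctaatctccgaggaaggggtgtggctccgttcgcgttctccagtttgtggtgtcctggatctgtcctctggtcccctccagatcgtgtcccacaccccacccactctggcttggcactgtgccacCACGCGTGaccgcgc
Hk1, upstream start (chr10:62379909-62380158, minus strand): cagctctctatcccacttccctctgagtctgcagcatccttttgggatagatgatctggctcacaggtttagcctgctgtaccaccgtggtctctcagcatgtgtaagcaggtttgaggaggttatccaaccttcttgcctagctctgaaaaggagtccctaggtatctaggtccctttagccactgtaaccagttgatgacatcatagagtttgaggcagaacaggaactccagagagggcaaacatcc
Ldha (chr7:46845554-46845803, plus strand): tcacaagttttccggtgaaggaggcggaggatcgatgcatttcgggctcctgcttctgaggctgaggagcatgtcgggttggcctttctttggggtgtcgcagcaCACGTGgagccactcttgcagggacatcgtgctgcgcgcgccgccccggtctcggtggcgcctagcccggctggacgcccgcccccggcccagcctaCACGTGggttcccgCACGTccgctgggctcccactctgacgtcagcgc

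ACGTG was found on either strand in 6 of 14 promoter entries of the 9 genes in that table, which holds no entry matched here for Slc2a3, and in 16.6% of 32851 promoter entries of all genes over the same length. GCGTG was found in 6 of the 14 and in 28.2% of all. The motif CACGTG, which other factors also bind and which holds ACGTG on both strands, stands in the Ldha promoter at 2 of its 3 marked places and in 6.02% of all promoter entries. Of the genes higher in all 4 pairs, Hk2 has 2 marked places. Pdk1 has 1 at the start shown and none at its other start (chr2:71874654-71874903). Of those lower in all 4, Hk1 has 2 at the start nearer the gene body and none at the upstream one. The bases just after the Ldha start shown were found in no GENCODE M21 transcript of the gene. Its other start (chr7:46846832-46847081), for which 1 transcript holds them, has 1 marked place, a GCGTG, and no CACGTG. Each of the 9 genes has a marked place at some start, so finding them in genes of either sign was fixed beforehand. Any part of these places in the differences was not tested.

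Slc2a1 encodes GLUT1, the widespread basal glucose transporter. It stood at 24.8, 63.4, 61.4 and 26.6 FPKM in CD34-negative replicates 1 to 4 and at 19.6, 49.8 and 29.3 FPKM in CD34-positive replicates 1 to 3. The groups overlapped, although CD34-negative replicates 2 and 3 lay above every CD34-positive library. The difference on the log2(FPKM + 1) scale, CD34-positive minus CD34-negative, was -0.38 (SE 0.49, limma adjusted p = 0.9999). Within equal numbers it was -0.32, -0.34, -1.04 and 0.13 for numbers 3, 2, 4 and 4a.

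Slc2a3 encodes GLUT3, a transporter of high affinity. It was the lowest of the 10 genes by mean level, at 12.4, 19.1, 14.7 and 9.50 FPKM in the CD34-negative libraries and 8.13, 10.4 and 6.92 FPKM in the CD34-positive ones. Only CD34-positive replicate 2 exceeded the lowest CD34-negative library. The mean was 8.49 ± 1.79 (SD, n = 3) against 13.9 ± 4.06 FPKM (SD, n = 4), a log2 difference of -0.63 (SE 0.31, limma adjusted p = 0.9999). With the block it was -0.69 (SE 0.18, limma adjusted p = 0.107). It was lower in all 4 pairs, with log2 differences of -0.55, -0.82, -0.98 and -0.41 for numbers 3, 2, 4 and 4a. Its unadjusted p with the block stayed under 0.05 whichever library was left out (0.00291 to 0.0450).

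Of 11 Slc2a transporters listed, 4 had levels that could be tested, and none passed over all genes. Slc2a1 held 38.5% to 62.8% of their summed FPKM in a library and Slc2a3 11.5% to 20.9%. Slc2a6 was the other large part, with 10.9% to 38.8%. Slc2a8, which encodes an intracellular transporter, averaged 1.57 ± 1.62 (SD, n = 3) with CD34 and 8.56 ± 8.65 FPKM (SD, n = 4) without it. CD34-negative replicate 2 was far above the rest at 21.5 FPKM. The groups did not overlap (3.01% of all genes as lower). In CD34-positive cells only replicate 2 reached 1 FPKM (3.44 FPKM). Slc2a8 thus passed the minimum for testing through the CD34-negative group, and its lack of overlap is not read as a result. Its log2 difference with the block was -1.88 (SE 0.19, limma adjusted p = 0.0767). Slc2a2 and Slc2a10 were listed at 0 throughout.

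Hk1, the hexokinase of most resting tissues and of red cells, was at 128, 174, 88.6 and 79.7 FPKM in the CD34-negative libraries. In the CD34-positive libraries it was at 113, 97.7 and 49.6 FPKM. The groups overlapped, but each CD34-positive library was below its CD34-negative partners, by log2 differences of -0.18, -0.82, -0.82 and -0.67 for numbers 3, 2, 4 and 4a. The mean was 86.8 ± 33.1 (SD, n = 3) against 118 ± 43.0 FPKM (SD, n = 4). The fit of the groups alone gave -0.45 (SE 0.46, limma adjusted p = 0.9999), and the block gave -0.60 (SE 0.16, limma adjusted p = 0.113). Leaving out either replicate 2 library or CD34-positive replicate 3 took the unadjusted p with the block to 0.0545, 0.0545 and 0.0805.

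Hk2, the hexokinase of muscle and fat that many tumour cells raise, had the opposite sign. It was at 31.0, 30.7, 34.7 and 12.6 FPKM in the CD34-negative libraries and at 41.1, 57.0 and 44.6 FPKM in the CD34-positive ones. The groups did not overlap, and CD34-negative replicate 4 was far below the other 3 of its group. The mean was 47.5 ± 8.38 (SD, n = 3) against 27.3 ± 9.91 FPKM (SD, n = 4). The log2 difference was 0.86 (SE 0.40, limma adjusted p = 0.953), and 0.80 with the block (SE 0.34, limma adjusted p = 0.229). Without CD34-negative replicate 4 it was 0.54 (limma adjusted p = 0.9998). FPKM were 1.32, 1.86, 1.28 and 3.53 times as high in the CD34-positive library for numbers 3, 2, 4 and 4a.

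Set against each other within a library, a ratio that a scaling of the whole library leaves nearly unchanged, Hk1 was 4.14, 5.66, 2.56 and 6.31 times Hk2 in the CD34-negative libraries. In the CD34-positive libraries it was 2.76, 1.71 and 1.11 times Hk2. Hk1 was thus the more abundant in all 7 libraries, and the ranges overlapped by 1 library on each side. The log2 ratio averaged 0.79 ± 0.65 (SD, n = 3) in CD34-positive and 2.09 ± 0.56 (SD, n = 4) in CD34-negative cells. The difference of -1.31 had p = 0.114 in a two-sided exact permutation test over 35 assignments, where the smallest possible p is 0.0571 (Benjamini-Hochberg adjusted p = 0.343 over the 3 ratios). It was lower in all 4 pairs, by log2 differences of -0.57, -1.70, -1.18 and -2.41, and within equal numbers the exact permutation p was 0.167, the smallest that 12 assignments allow.

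**Figure D2:**
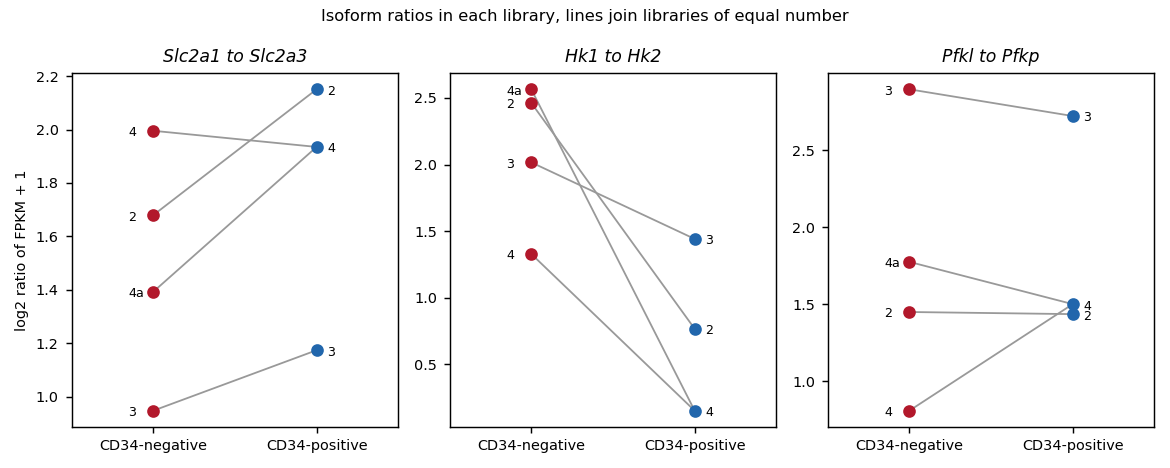
Points give the log2 ratio of FPKM + 1 of Slc2a1 to Slc2a3, Hk1 to Hk2 and Pfkl to Pfkp in each library, red for CD34-negative and blue for CD34-positive, marked with the library's number and joined within equal numbers. All lines of Hk1 to Hk2 slope down from left to right, while the other 2 ratios have lines of either direction.

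Of the summed FPKM of 5 hexokinase genes, Hk1 held 80.4% ± 6.57 (SD, n = 4) in CD34-negative and 60.6% ± 10.1 (SD, n = 3) in CD34-positive libraries. Hk2 held 18.9% ± 6.50 and 35.4% ± 9.94. Hk3, an isoform of myeloid cells, held 0.539% ± 0.711 in CD34-negative and 3.26% ± 0.522 in CD34-positive libraries. Hk3 was at 4.57 ± 1.48 (SD, n = 3) against 0.871 ± 1.17 FPKM (SD, n = 4), with groups that did not overlap, and its log2 difference was 1.72 (SE 0.44, limma adjusted p = 0.606). The sum of the 5 genes ranged from 92.5 to 205 FPKM in CD34-negative and from 97.7 to 163 FPKM in CD34-positive libraries, so the groups overlapped in the summed level, their Hk1 shares did not overlap (lowest CD34-negative 71.7%, highest CD34-positive 71.0%), and their Hk2 shares did (highest CD34-negative 28.1%, lowest CD34-positive 25.7%).

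**Figure D3:**
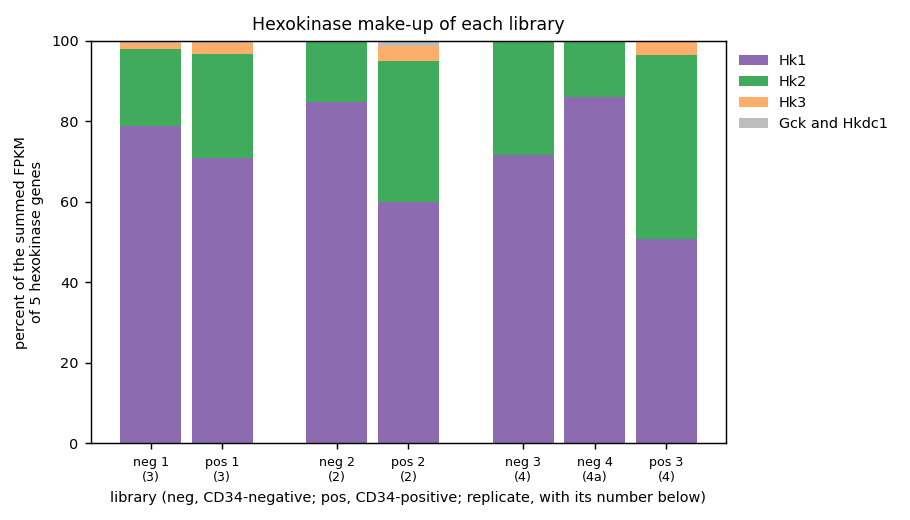
Stacked bars give the percent of the summed FPKM of 5 hexokinase genes held by Hk1, Hk2, Hk3 and the remaining genes in each library, with libraries of equal number side by side. Hk1 is at 84.7% and 60.0% in the number 2 libraries and is at 50.8% in CD34-positive replicate 3, against 71.7% and 86.1% in its partners.

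Pfkl, the liver-type subunit of phosphofructokinase, was at 86.6, 141, 65.8 and 54.1 FPKM in the CD34-negative libraries. In the CD34-positive libraries it was at 74.8, 121 and 49.2 FPKM. Levels followed the number more than the group, and within each number CD34-positive cells were slightly lower, by log2 differences of -0.21, -0.22, -0.41 and -0.14. The difference was -0.09 (SE 0.48) without and -0.24 (SE 0.13, limma adjusted p = 0.349) with the block.

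Pfkp, the platelet-type subunit, was at 10.8, 51.0, 37.1 and 15.1 FPKM in CD34-negative and 10.5, 44.1 and 16.7 FPKM in CD34-positive libraries. The number 3 libraries were the lowest of each group and the number 2 libraries the highest. Differences within numbers were -0.04, -0.20, -1.11 and 0.14 on the log2 scale, and neither fit separated the groups (limma adjusted p = 0.9999, or 0.636 with the block). The ratio of Pfkl to Pfkp averaged 1.89 ± 0.72 (SD, n = 3) against 1.73 ± 0.87 (SD, n = 4) on the log2 scale (exact permutation p = 0.914). That of Slc2a1 to Slc2a3 averaged 1.75 ± 0.51 (SD, n = 3) against 1.504 ± 0.45 (SD, n = 4; exact permutation p = 0.514). Pfkm, the muscle-type subunit, held 21.3% ± 6.67 (SD, n = 4) of the phosphofructokinase FPKM in CD34-negative and 17.2% ± 3.99 (SD, n = 3) in CD34-positive libraries. Pfkm was lower in all 4 pairs (log2 difference with the block -0.69, SE 0.21, limma adjusted p = 0.134).

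Aldoa, the main aldolase of most tissues, was the most abundant of the 10 genes in every library and held nearly all of the aldolase FPKM (lowest share 99.98%). It was at 1144, 3455, 1271 and 948 FPKM in the CD34-negative libraries and at 882, 2551 and 868 FPKM in the CD34-positive ones. The replicate 2 libraries stood far above the rest in both groups. Within numbers the log2 differences were -0.37, -0.44, -0.55 and -0.13, all lower in CD34-positive cells. The difference with the block was -0.38 (SE 0.17, limma adjusted p = 0.258), and without it the SE exceeded the difference of -0.24.

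Ldha, which makes lactate from pyruvate, came next in abundance in all 7 libraries and was the only lactate dehydrogenase of note, with a lowest share of 99.5% of the family's FPKM. Ldhb, the heart-type isoform, was listed at 0 throughout. Ldha was at 918, 2503, 507 and 409 FPKM in CD34-negative and at 778, 2060 and 376 FPKM in CD34-positive libraries. It was therefore lower in CD34-positive cells in every pair (log2 differences -0.24, -0.28, -0.43 and -0.12), while the group means were nearly equal, 1071 ± 880 (SD, n = 3) against 1084 ± 971 FPKM (SD, n = 4). The sign of the estimate turns with the block, from 0.02 (SE 0.99) to -0.27 (SE 0.15, limma adjusted p = 0.359). Libraries of number 4 had the lowest Ldha of either group, and with it low Gapdh (442 to 649 FPKM against 2196 to 6001 FPKM in the other 4) and a low share of ribosomal protein genes, whose part in these levels was not tested.

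**Figure D4:**
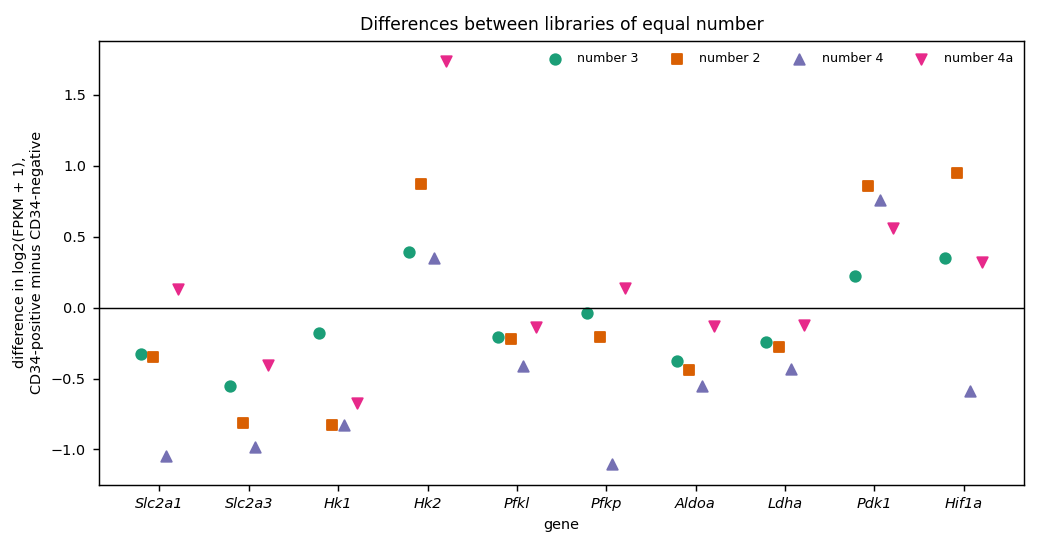
Points give, for each gene, the difference in log2(FPKM + 1) between the CD34-positive and the CD34-negative library of equal number, with 1 marker per number. All 4 points lie above 0 for Hk2 and Pdk1 and below 0 for Slc2a3, Hk1, Pfkl, Aldoa and Ldha.

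Pdk1, the pyruvate dehydrogenase kinase best known as a HIF-1 target, was at 14.8, 11.7, 17.5 and 20.1 FPKM in the CD34-negative libraries. In the CD34-positive libraries it was at 17.4, 21.9 and 30.2 FPKM. The groups overlapped, with CD34-positive replicate 1 below CD34-negative replicates 3 and 4. The mean was 23.2 ± 6.50 (SD, n = 3) against 16.0 ± 3.62 FPKM (SD, n = 4), and the log2 difference was 0.50 (SE 0.32, limma adjusted p = 0.9999) without and 0.59 (SE 0.16, limma adjusted p = 0.115) with the block. It was higher in every pair, by 0.22, 0.86, 0.76 and 0.56 on the log2 scale. Leaving out either replicate 2 library or CD34-positive replicate 3 took the unadjusted p with the block to 0.0507, 0.0510 and 0.0690.

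Pdk1 was not the main kinase of its family. Pdk3 held 65.8% ± 3.17 (SD, n = 4) of the summed FPKM of the 4 Pdk genes in CD34-negative and 65.6% ± 7.40 (SD, n = 3) in CD34-positive libraries, and Pdk1 held 22.9% ± 5.67 and 30.0% ± 7.11. Pdk2 had the opposite sign to Pdk1, at 3.17 ± 1.58 (SD, n = 3) against 8.06 ± 2.62 FPKM (SD, n = 4), and was lower in all 4 pairs (log2 difference with the block -1.20, SE 0.29, limma adjusted p = 0.0958). Pdha1, a subunit of the enzyme these kinases inhibit, was higher in all 4 pairs (0.57 with the block, SE 0.18, limma adjusted p = 0.146).

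Hif1a was at 17.2, 4.09, 33.3 and 17.3 FPKM in the CD34-negative libraries and at 22.2, 8.80 and 21.8 FPKM in the CD34-positive ones. The replicate 2 libraries were the lowest of each group, the reverse of Aldoa and Ldha, which were highest there. CD34-positive cells were higher for numbers 3, 2 and 4a (log2 differences 0.35, 0.95 and 0.32) and lower for number 4 (-0.59). The difference was 0.16 (SE 0.63) without and 0.33 (SE 0.29, limma adjusted p = 0.532) with the block. Epas1, which encodes HIF-2α, was listed at 0 in all libraries.

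By mean level over the 7 libraries the order was Aldoa, Ldha, Hk1, Pfkl, Slc2a1, Hk2, Pfkp, Pdk1, Hif1a and Slc2a3. Aldoa exceeded Ldha, Ldha exceeded Hk1 and Pfkl exceeded Slc2a1 in 7 of 7 libraries, and Hk1 exceeded Pfkl in 6 of 7. From Slc2a1 down the neighbours changed places between libraries, each holding its order in only 3 to 5 of 7. Among all tested genes Aldoa and Ldha lay at or above the 98.8th percentile of every library, and Slc2a3 between the 32.7th and the 61.3th.

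The other genes of the pathway were taken from lists of 84 genes beside the 10, of which 75 were in the table and 51 were tested. None passed over all genes with or without the block (0% of all genes). With the block, 6 of the 51 had an unadjusted p under 0.05 as higher and 10 as lower, beside 12.8% and 9.14% of all genes. The median difference of all 61 tested pathway genes, the 10 included, was 0.02 without and -0.15 with the block, beside 0.09 and 0.04 over all genes tested.

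In upper glycolysis, Pfkfb3, which makes an activator of phosphofructokinase, was higher in all 4 pairs (12.9 against 8.16 FPKM). Its log2 difference with the block was 0.71 (SE 0.23, limma adjusted p = 0.146). In lower glycolysis Pklr, the pyruvate kinase of liver and red cells, was at 1.44, 19.6, 0.237 and 4.96 FPKM in CD34-negative replicates 1 to 4. In the CD34-positive libraries it was at 0.021 to 0.053 FPKM. Pklr reached 1 FPKM only in CD34-negative libraries and so passed the minimum for testing through that group alone. That its groups did not overlap therefore cannot be read as a result. The other pyruvate kinase gene, Pkm, and Eno1 were not analysed here. Pgam1, a mutase of the same stretch, had higher values in all 4 pairs (390 against 248.9 FPKM, limma adjusted p = 0.178 with the block). Gapdh and Pgk1 differed by less than their spread.

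Rpia, an enzyme of the pentose phosphate pathway, which branches off after hexokinase, was at 36.3 ± 16.8 (SD, n = 3) against 102 ± 45.2 FPKM (SD, n = 4). The groups did not overlap (3.01% of all genes as lower), and its log2 difference with the block was -1.62 (SE 0.31, limma adjusted p = 0.0931). In that pathway 5 of 7 tested genes, G6pdx, Pgd, Pgls, Rpia and Taldo1, were lower in all 4 pairs (18.9% of all genes), and Rpe was higher in all 4 (21.4% of all genes).

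Among regulators of HIF, Egln3, an oxygen sensor that marks HIF for destruction and is itself a HIF target, was higher in all 4 pairs (109 against 63.1 FPKM, log2 difference with the block 0.68, SE 0.28, limma adjusted p = 0.223). Of 10 tested hypoxia response genes outside glycolysis, 5 were lower in all 4 pairs and 1 was higher, beside 18.9% and 21.4% of all genes. Vegfa (1.44 against 3.68 FPKM) and Mxi1 (3.37 against 9.46 FPKM) had groups that did not overlap (3.01% of all genes as lower). Hk2 and Pdk1 of the 10, Egln3 of the regulators and Kdm3a of the hypoxia genes were higher in all 4 pairs (21.4% of all genes). Slc2a3, Hk1, Pfkl, Aldoa and Ldha of the 10 and Hif1an of the regulators were lower in all 4 (18.9% of all genes). So were Bnip3l, Ero1l, Mxi1, P4ha1 and Vegfa of the hypoxia genes. None of them passed over all genes, and a part of HIF in these differences was not tested.

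**Figure D5:**
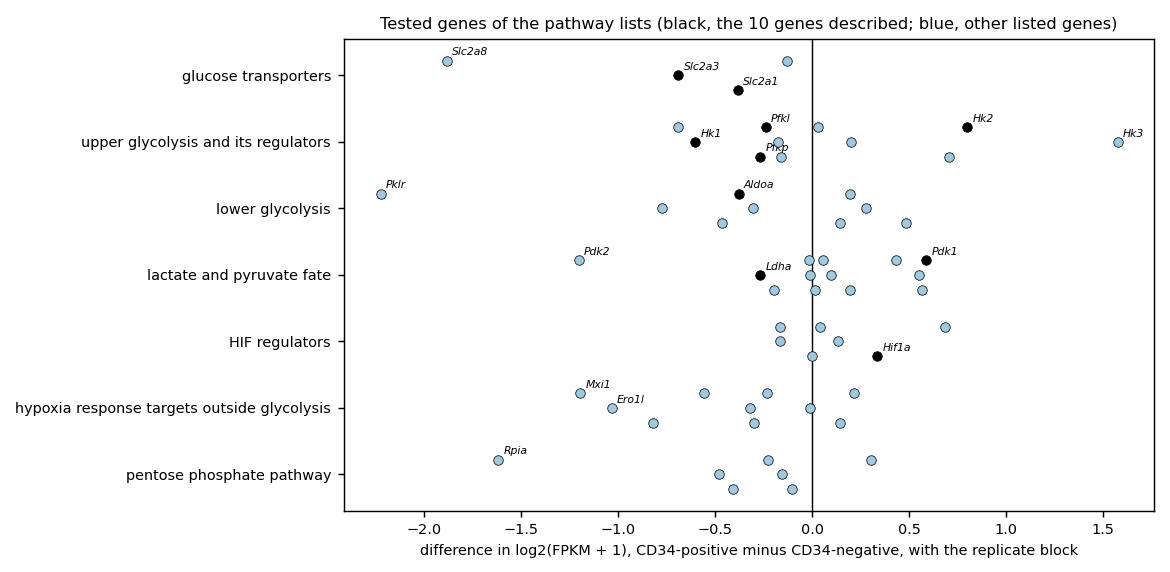
Each point is a tested gene, placed by its difference in log2(FPKM + 1), CD34-positive minus CD34-negative with the replicate block, and by its pathway list (black, the 10 genes; blue, other genes of the lists). Hk3 lies farthest to the right at 1.57 and Pklr farthest to the left at -2.22. Pklr passed the minimum for testing only through CD34-negative libraries, and Hk3 passed it through the CD34-positive group.

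Markers of blood cell types were compared in the same way, and none passed over all genes with or without the block. Of 10 tested erythroid markers, 8 were lower in CD34-positive cells with groups that did not overlap (3.01% of all genes), among them Gata1 at 14.9 ± 9.74 (SD, n = 3) against 90.3 ± 51.7 FPKM (SD, n = 4). The summed level of the 12 erythroid markers in the table was 137 to 743 FPKM in CD34-positive and 234 to 2247 FPKM in CD34-negative libraries. Of 5 tested mast cell markers 4 were lower with groups that did not overlap (3.01% of all genes). The other, Cpa3, had the higher mean in CD34-positive cells (2400 against 1466 FPKM). Its log2 differences were 0.23, 2.30, -0.04 and 2.28 for numbers 3, 2, 4 and 4a. The 6 listed summed to 2124 to 3203 FPKM against 1646 to 10409 FPKM. Cpa3 alone was at 1936 to 3044 FPKM against 451 to 3134 FPKM. Of 5 tested neutrophil and monocyte markers, 2 (Ctsg and Gfi1) were higher with groups that did not overlap (2.67% of all genes), and all 5 were higher in all 4 pairs (21.4% of all genes). In CD34-negative cells Gfi1 reached 1 FPKM only in replicate 1 (1.36 FPKM). Gfi1 thus passed the minimum for testing through the CD34-positive group, and its lack of overlap is not read as a result. The 9 listed summed to 1242 to 2363 FPKM against 124 to 1313 FPKM. None of these 27 markers was at 0 in every library. Of 7 stem and progenitor markers, all tested, 4 had groups that did not overlap (5.68% of all genes in either direction). Tcf7, Ly6a and Cd34 were higher (2.67% of all genes) and Gata2 was lower (3.01%). Cd34 is the gene of the sorted protein, so its separation is no separate result. Hlf and Meis1 were also higher in all 4 pairs (21.4% of all genes). The 7 summed to 703 to 807 FPKM against 341 to 951 FPKM. Their part in the differences of the glycolysis genes was not tested, and in bulk RNA fewer cells of a type and less RNA per cell cannot be told apart.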

How the data were processed

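RNA was sequenced in 4 CD34-negative and 3 CD34-positive libraries of EML cells. The authors deposited 1 table of FPKM; the submitters' processing notes name Cuffdiff, TopHat and TopHat2, without versions, and the builds mm9 and mm10. No header states the unit, which was taken from Cuffdiff being named and from the values. Not given in the sources used here are the annotation and whether strand was used. Genes with near-identical copies or overlapping exons (for Aldoa Fam57b, for Pfkp Pitrm1, for Hk1, Hif1a and Slc2a1 antisense transcripts, for Hif1a also Gm49321 on the same strand, in GENCODE M21) are therefore uncertain.

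Of 20464 rows, 322 with repeated symbols were left out. The 9259 genes that reached 1 FPKM in 3 or more libraries were tested as log2(FPKM + 1), which understates changes of low genes, with limma 3.58.1 in R 4.3.3 (mean-variance trend, two-sided, Benjamini-Hochberg over all tested genes, threshold 0.05). The fit without the block was tested on simulated data with independent libraries and no effect of the number. The fit with the block was not tested in this way. Depth is unknown: low values of the replicate 1 libraries stood in a fixed ratio of 0.572 in 179 of 576 genes under 0.2 FPKM (within a window of 0.02 on the log2 scale), which gives relative depth only. Every column of values was used.

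Deviations from the group means correlated at 0.70, 0.92, 0.82 and 0.85 for libraries of equal number (3, 2, 4 and 4a) and at -0.86 to 0.37 for the others. Such deviations cancel within a group, which by itself lowers correlations between unlike numbers. Equal numbers were treated as pairs, but whether they share cells or only processing cannot be told from these values. The labels do not state a pairing. Isoform ratios were compared by exact permutation. Named genes beside the 10 are the up to 3 of each pathway list with the smallest p with the block and the up to 2 with the highest level, the first gene of each marker list and Cd34. Others were named after their values were seen. The 10 genes and the lists were chosen with earlier results of these data known. Alternatives were pseudocount, filter, normalization, block, and libraries left out.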

Additional observations from a re-analysis of the deposited data

Results flagged for a closer look

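In the CD34-negative group of 4 libraries, 1 library lay far from its 3 companions, in log2(FPKM + 1), for 3 of 46 quantities looked at; chance alone marks about 1 in 20 of independent quantities. For Hk2, CD34-negative replicate 4 was low, with a gap to the nearest library of 0.877 of the group's range. For Slc2a8, CD34-negative replicate 2 was high, with a gap of 0.917. For Slc2a6, CD34-negative replicate 4 was low, with a gap of 0.952.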

How the results depend on the processing

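None of the 10 genes passed over all genes in any of the 27 alternative fits (0 in either direction). Under an unadjusted p of 0.05 the count reached 3 higher and 4 lower. Over these 27 fits the log2 difference kept its sign for Slc2a1 (-0.72 to -0.07), Slc2a3 (-0.78 to -0.47), Hk1 (-0.78 to -0.09), Hk2 (0.54 to 1.05) and Pdk1 (0.30 to 0.75). The Hk1 to Hk2 ratio kept its sign in 13 alternatives (-1.66 to -0.99).

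The replicate block by description number left 0 genes higher and 0 lower over all genes and turned the sign of Ldha alone among the 10 (-0.27). Ldha also turned with quantile normalization (-0.31), median-ratio scaling (-0.087), CD34-negative replicates 3 and 4 averaged into 1 sample (-0.27), without the libraries of number 4 (-0.26) or 2 (-0.090), and, in alternatives chosen after seeing the data, with the replicate block and median-ratio scaling (-0.32) or quantile normalization (-0.18). The cause was not tested. With 1 library left out and no block, Ldha ranged from -0.62 to 0.61, Pfkl from -0.42 to 0.22, Pfkp from -0.80 to 0.19, Aldoa from -0.75 to 0.17 and Hif1a from -0.38 to 0.57. With the block and 1 library left out, Ldha ranged from -0.32 to -0.21. The Pfkl to Pfkp ratio had -0.094 without the libraries of number 4 and ranged from -0.26 to 0.54 with 1 library left out. Over all genes, leaving out 1 library gave 0 to 7 higher and 0 to 3 lower without the block and 0 to 231 higher and 0 to 125 lower with it. With the block it gave 231 higher and 81 lower without CD34-negative replicate 1 (Ldha -0.28), 230 and 81 without CD34-positive replicate 1 (Ldha -0.28), 32 and 125 without CD34-negative replicate 3, and 1 and 0 without CD34-positive replicate 3. The depth of the libraries is unknown, so no counting error can be given for low genes such as Pklr.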
